A study of Homo sapiens with 4 samples.

Results

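The genes described here are 10 members of the Hippo pathway and its transcriptional output: the coactivators YAP1 and WWTR1 (which encodes TAZ), their DNA-binding partners TEAD1, TEAD3 and TEAD4, the inhibitory kinases LATS1 and LATS2, and the target genes CCN1, CCN2 and ANKRD1. They were chosen by name, as the rows of the gene count table whose Ensembl IDs map to these symbols, and all 10 were found among 20263 rows. RNA was taken from MDA-MB-231 cells, a line derived from human breast cancer that lacks oestrogen, progesterone and HER2 receptors, after 24 h with Rib_CA or with DMSO, the vehicle. By the series title Rib_CA derives from ribociclib, an inhibitor of the kinases CDK4 and CDK6; its dose is not given in the labels. Each treatment had 2 libraries made with an mRNA kit, and all cells grew in DMEM with serum.

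In the Hippo pathway, the MST kinases activate LATS1 and LATS2, and the LATS kinases phosphorylate YAP and TAZ, which are then held in the cytoplasm and degraded. Unphosphorylated YAP and TAZ enter the nucleus and bind TEAD proteins, which recognise the sequence GGAATG, also read as CATTCC on the other strand. CCN1 and CCN2, secreted matricellular proteins, and ANKRD1, an ankyrin-repeat protein, are standard readouts of this output, and LATS2 is itself a target that closes a feedback loop. MDA-MB-231 cells carry an inactivating mutation of NF2, an upstream activator of the LATS kinases, and are widely used as a model of high YAP and TAZ activity. YAP and TAZ are regulated largely by phosphorylation and location, neither of which is measured by RNA counts.

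The promoter sequences of 3 of these genes are shown because they hold the TEAD motif whose targets are counted below. RefSeq (GRCh38.p14) gave promoter windows for 7 of the 10 genes, 9 windows in all, and the 250 bases before the annotated start were searched for GGAATG on both strands, with overlaps allowed. Capitals mark the motif, and each sequence is written along the gene's own strand. CCN2 lies at chr6:131951373-131951622 on the minus strand, ANKRD1 at chr10:90921088-90921337 on the minus strand and YAP1 at chr11:102110197-102110446 on the plus strand.
CCN2: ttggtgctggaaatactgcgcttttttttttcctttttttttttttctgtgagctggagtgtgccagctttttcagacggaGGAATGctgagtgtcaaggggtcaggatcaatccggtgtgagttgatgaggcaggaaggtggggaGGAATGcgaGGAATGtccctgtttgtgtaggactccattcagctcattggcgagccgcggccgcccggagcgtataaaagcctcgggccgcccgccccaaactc
ANKRD1: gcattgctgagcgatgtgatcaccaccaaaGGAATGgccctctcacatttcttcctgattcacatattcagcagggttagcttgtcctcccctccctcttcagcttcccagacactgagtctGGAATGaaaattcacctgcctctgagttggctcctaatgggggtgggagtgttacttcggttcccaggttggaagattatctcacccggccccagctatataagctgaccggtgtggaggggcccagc
YAP1: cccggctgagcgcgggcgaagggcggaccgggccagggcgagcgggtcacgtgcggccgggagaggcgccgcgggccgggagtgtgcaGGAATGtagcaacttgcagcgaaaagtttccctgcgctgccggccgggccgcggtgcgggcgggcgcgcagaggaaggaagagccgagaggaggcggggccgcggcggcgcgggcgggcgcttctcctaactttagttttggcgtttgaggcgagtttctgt
The CCN2 window held 3 motifs, whose first bases lay 169, 104 and 95 bases before the start. ANKRD1 held 2, at 220 and 128 bases, and YAP1 held 1, at 162 bases. The windows of WWTR1, TEAD3, LATS1 and LATS2 held none. Among 35116 RefSeq windows of this length, 11.9% held at least 1 motif, 0.940% at least 2 and 0.0826% at least 3. CCN2 and ANKRD1 were chosen as known TEAD targets, and a match describes letters, not a measured binding site.

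The libraries held 38865103 and 37772266 counts for Rib_CA 1 and 2 and 34774542 and 37754168 counts for DMSO 1 and 2. Levels are given as CPM, counts per 1000000 counts of the library after TMM scaling (a correction for library composition). Transcripts of the mitochondrial genome took 5.78% and 3.13% of the counts in Rib_CA 1 and 2, against 8.68% and 21.7% in DMSO 1 and 2. The 95% Wilson interval of the last share was 21.68 to 21.71%, which covers counting error only. Of the line's markers, the mesenchymal gene VIM lay at 3752 and 3775 CPM in Rib_CA and at 3587 and 4221 CPM in DMSO, and the epithelial cadherin gene CDH1 had 3 and 0 counts in Rib_CA and 2 and 0 counts in DMSO. The oestrogen receptor gene ESR1 had 4 and 7 counts in Rib_CA, against 23 and 7 counts in DMSO, while the keratin gene KRT8 lay at 487 and 272 CPM in Rib_CA and at 297 and 300.3 CPM in DMSO. Of 7 luminal and epithelial markers 5 were tested, with log2 fold changes from -1.87 to 0.35, and the 4 mesenchymal markers had -0.41 to -0.05. None of these passed the test. The mesenchymal genes CD44 and FN1 and the luminal genes PGR and FOXA1 lay lower in both Rib_CA libraries than in both DMSO libraries, and EPCAM higher. Over all genes tested 28.4% lay lower in this way and 30.4% higher. PGR had only 20 and 16 counts in Rib_CA, against 51 and 58 in DMSO. FOXA1 had 158 and 21 counts in Rib_CA, against 255 and 240 in DMSO. Of the other cell types' markers, CD3E was at 0 in all 4 libraries, and PTPRC, a leukocyte gene, had 6 and 2 counts in Rib_CA, against 22 and 13 counts in DMSO. PECAM1, an endothelial gene, had 23 and 34 counts in Rib_CA, against 41 and 23 counts in DMSO. ALB, a liver gene, had 0 and 0 counts in Rib_CA, against 2 and 6 counts in DMSO. Each value is a share of a culture's RNA, so fewer cells with a transcript and less of it per cell cannot be told apart.

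Rib_CA was set against DMSO to ask which genes the compound changed. Among the 10 genes, TEAD1 alone fell, 2.44-fold, and none rose. The coactivator genes YAP1 and WWTR1 and the kinase gene LATS1 lay lower in both Rib_CA libraries than in both DMSO libraries, by 1.25-fold to 1.49-fold, without passing the test. The 3 classical targets CCN1, CCN2 and ANKRD1 overlapped between the groups. The threshold was an adjusted p of 0.05 in edgeR's quasi-likelihood test over 13667 genes, of which 7.13% passed, 5.11% as lower and 2.01% as higher. All 10 genes passed the filter on low counts and were tested. In 4 of the 10 both Rib_CA libraries lay below both DMSO libraries and in 1 above, where the shares over all genes tested were 28.4% and 30.4%, and 58.8% in either direction. The median log2 fold change of the 10 was -0.25, beside 0.03 for all genes tested. Counts of this kind, 1 called of 10, lie near the background and say nothing particular about the pathway.

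**Figure D1:**
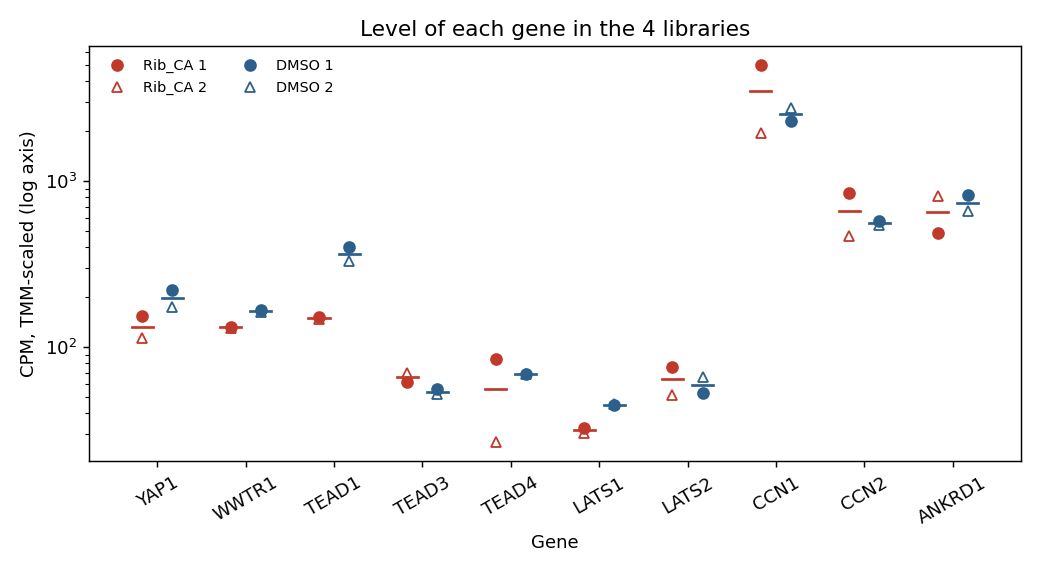
Levels of the 10 genes in CPM (TMM-scaled, log axis) in Rib_CA 1 and 2 (red) and DMSO 1 and 2 (blue), with bars at the group means. TEAD1 shows the widest gap between the groups on the log axis, and TEAD4 and CCN1 the widest gap between the 2 Rib_CA libraries.

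YAP1, which encodes the coactivator YAP (ENSG00000137693; chromosome 11, 102110461 to 102233423 in GENCODE release 29, GRCh38), had 153 and 113 CPM in Rib_CA 1 and 2, against 221 and 175 CPM in DMSO 1 and 2. The groups did not overlap, although the gap between Rib_CA 1 and DMSO 2 was smaller than the gaps within either group. The log2 fold change was -0.58 ± 0.29 (SE; adjusted p = 0.241, edgeR). WWTR1, which encodes its paralog TAZ (ENSG00000018408; chromosome 3, 149517235 to 149736714), had 132 and 131 CPM in Rib_CA, against 168 and 162 CPM in DMSO. Its libraries agreed within each group, and the groups lay apart. The log2 fold change was -0.33 ± 0.24 (adjusted p = 0.419, edgeR). Per kilobase of the longest annotated transcript, the 2 genes stood at like levels: YAP1 took 51.9% and 44.5% of their sum in Rib_CA, against 55.1% and 50.1% in DMSO. That sum was 54.7 and 46.9 CPM per kb in Rib_CA, against 74.4 and 64.7 CPM per kb in DMSO, without overlap. The YAP1 to WWTR1 count ratio, which library scaling cannot move, was 1.16 and 0.860 in Rib_CA and 1.32 and 1.08 in DMSO, and these overlapped.

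TEAD1, the TEAD gene with the longest transcript of the 3 (ENSG00000187079; chromosome 11, 12674591 to 12944483), had 152 and 147 CPM in Rib_CA 1 and 2, against 401 and 329 CPM in DMSO 1 and 2. The groups were far apart, and the lower DMSO library still held more than 2 times the level of either Rib_CA library. Mean levels were 149 ± 3.82 CPM in Rib_CA and 365 ± 50.5 CPM in DMSO (SD, n = 2 each). The log2 fold change was -1.29 ± 0.26 (adjusted p = 0.0393, edgeR), with a lower value in 8.28% of the genes tested. On leaving out DMSO 1 or DMSO 2 the call was lost (adjusted p = 0.294 and 0.145), with log2 fold changes of -1.15 and -1.43. It was also lost with total-count scaling (adjusted p = 0.0673), and after a correction of the libraries for the GC content and length of transcripts, by which TEAD1 was 1.40-fold lower (adjusted p = 0.219).

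TEAD3 (ENSG00000007866; chromosome 6, 35473597 to 35497076) had 61.7 and 69.7 CPM in Rib_CA, against 55.7 and 51.9 CPM in DMSO. It was the one gene of the 10 whose Rib_CA libraries both lay above DMSO, by a log2 fold change of 0.29 ± 0.25 (adjusted p = 0.498, edgeR). TEAD4 (ENSG00000197905; chromosome 12, 2959330 to 3040673) had 84.6 CPM in Rib_CA 1 and 26.7 CPM in Rib_CA 2, against 68.8 and 69.3 CPM in DMSO. The Rib_CA libraries lay on either side of the closely agreeing DMSO pair. Its log2 fold change of -0.31 ± 0.51 (adjusted p = 0.734, edgeR) averages these: it was -1.42 without Rib_CA 1 and 0.29 without Rib_CA 2. After the GC and length correction it was -1.02 ± 0.45 (adjusted p = 0.225). TEAD2, the remaining family member, had 23.3 and 23.2 CPM in Rib_CA, against 19.4 and 23.3 CPM in DMSO.

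Within the TEAD family, TEAD1 made up 18.3% and 26.2% of the summed level per kb in Rib_CA 1 and 2, against 41.2% and 36.4% in DMSO 1 and 2. These shares did not overlap, and TEAD3 took a larger share in Rib_CA (21.1% and 35.4%) than in DMSO (16.3% and 16.3%). Shares of a sum depend on each other, and the level of TEAD3 itself did not pass the test. The shares also carry no correction for GC content and length. After that correction the log2 fold changes were -0.49 for TEAD1, -0.34 for TEAD2, -0.12 for TEAD3 and -1.02 for TEAD4. None of these passed, and TEAD1 no longer fell relative to TEAD4. The family sum was 98.2 and 65.9 CPM per kb in Rib_CA, against 114.6 and 106.8 CPM per kb in DMSO. TEAD4 made up 51.0% of the sum in Rib_CA 1 and 23.9% in Rib_CA 2, against 35.5% and 38.4% in DMSO. The count ratio of TEAD1 to TEAD4 was 1.80 and 5.50 in Rib_CA and 5.82 and 4.75 in DMSO, so that the groups overlapped through Rib_CA 2.

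**Figure D2:**
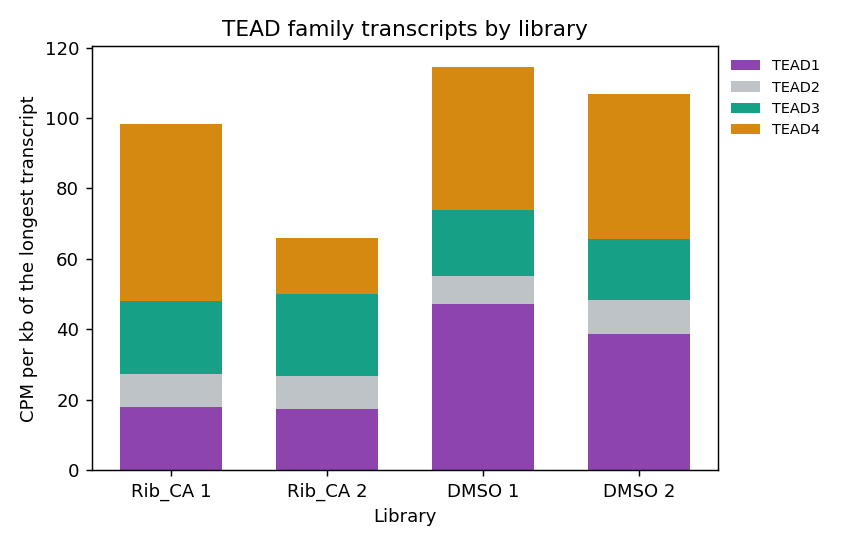
Stacked levels of TEAD1, TEAD2, TEAD3 and TEAD4 in CPM per kb of the longest transcript, one bar per library, with Rib_CA left of DMSO. The TEAD1 segment measured 17.9 and 17.3 CPM per kb in Rib_CA against 47.3 and 38.8 in DMSO, while the TEAD4 segment differed most between the 2 Rib_CA libraries.

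LATS1, which encodes a kinase of YAP and TAZ (ENSG00000131023; chromosome 6, 149658153 to 149718256), had 32.5 and 30.3 CPM in Rib_CA, against 44.5 and 45.6 CPM in DMSO. Both pairs agreed closely and the groups lay apart, but the log2 fold change of -0.52 ± 0.26 did not pass (adjusted p = 0.240, edgeR). LATS2 (ENSG00000150457; chromosome 13, 20973032 to 21061547), the paralog that YAP and TAZ induce, had 76.1 and 51.7 CPM in Rib_CA, against 52.7 and 65.8 CPM in DMSO. The groups overlapped, with a log2 fold change of 0.11 ± 0.30 (adjusted p = 0.851, edgeR). The LATS1 to LATS2 count ratio was 0.427 and 0.587 in Rib_CA, against 0.845 and 0.694 in DMSO. It was the one of 4 paralog ratios without overlap between groups. Its two-sided exact permutation p was 0.333, the smallest that 2 libraries against 2 can give, and 0.667 adjusted over the 4 ratios. The other 3 ratios (YAP1 to WWTR1, TEAD1 to TEAD4, CCN1 to CCN2) had an exact permutation p of 0.667 each. Count ratios carry no correction for GC content and length. After that correction the log2 fold change was 0.27 for LATS1 and 0.05 for LATS2, so LATS1 no longer fell relative to LATS2.

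CCN1, formerly CYR61 (ENSG00000142871; chromosome 1, 85580761 to 85583962), was the most abundant of the 10, with 4994 CPM in Rib_CA 1 and 1963 CPM in Rib_CA 2, against 2287 and 2756 CPM in DMSO 1 and 2. One Rib_CA library lay above both DMSO libraries and the other below both. The log2 fold change was 0.46 ± 0.49 (adjusted p = 0.574, edgeR), -0.41 without Rib_CA 1 and 0.98 without Rib_CA 2. CCN2, formerly CTGF (ENSG00000118523; chromosome 6, 131948176 to 131951373), whose promoter held 3 motifs, showed the same arrangement, with 846 and 469 CPM in Rib_CA, against 579 and 544 CPM in DMSO. Its log2 fold change was 0.23 ± 0.35 (adjusted p = 0.715, edgeR). ANKRD1 (ENSG00000148677; chromosome 10, 90912096 to 90921276), with 2 motifs, had the opposite order within Rib_CA, with 486 and 810 CPM, against 825 and 660 CPM in DMSO. Its log2 fold change was -0.20 ± 0.34 (adjusted p = 0.751, edgeR). For all 3 targets the SE was larger than the log2 fold change.

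**Figure D3:**
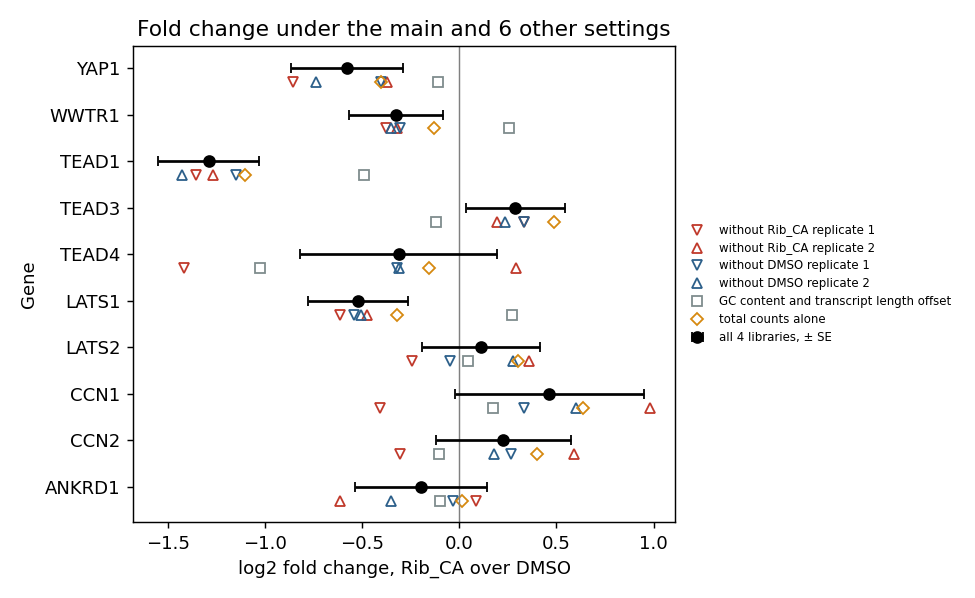
Log2 fold change of Rib_CA over DMSO for each of the 10 genes with all 4 libraries (black, bars are ± SE) and, just beneath, with 1 library left out, with total-count scaling and with the GC and length correction. TEAD1 and YAP1 stay left of 0 in all 7 values, and the other 8 genes have values on both sides of 0, WWTR1, LATS1 and TEAD3 through the GC and length correction alone.

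Ordered by level per kb, CCN1 stood first in both groups, at a mean of 1519 CPM per kb in Rib_CA and 1101 in DMSO, followed by ANKRD1 (328 in Rib_CA and 375 in DMSO) and CCN2 (281 in Rib_CA and 240 in DMSO). The ranges of ANKRD1 and CCN2 overlapped in Rib_CA and not in DMSO. The other 7 genes had means of at most 43.1 CPM per kb. In Rib_CA they ran TEAD4, WWTR1, YAP1, TEAD3, TEAD1, LATS2 and LATS1, from 32.9 to 4.18 CPM per kb, and the ranges of the first 4 overlapped from neighbour to neighbour. In DMSO they ran TEAD1, TEAD4, YAP1, WWTR1, TEAD3, LATS2 and LATS1, from 43.1 to 5.995 CPM per kb, with overlaps among the first 4. TEAD1 thus stood first of these 7 in DMSO and after TEAD3 in Rib_CA.

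Other published target genes of YAP and TAZ were read next, in a list written with earlier results of these data known. Whether any change among them came through YAP and TAZ was not tested. Of 18 such genes tested, 4 fell and none rose: the growth factor gene TGFB2 was 3.46-fold lower, the matrix gene CCDC80 2.97-fold, the RNA-binding protein gene RBMS3 2.51-fold and IGFBP3, whose product binds insulin-like growth factors, 2.48-fold. The median log2 fold change of the 18 was -0.59, and -0.36 after the GC and length correction, with 13 genes below 0 and 5 above before it. The largest change of the 18 was upward and did not pass. GADD45A was 3.99-fold higher (adjusted p = 0.0765, edgeR), with 182 and 53.2 CPM in Rib_CA, against 28.1 and 30.8 CPM in DMSO. In 9 of the 18 both Rib_CA libraries lay below both DMSO libraries and in 2 above, where all genes tested gave 28.4% and 30.4%, and 5.11% called lower. TGFB2 had 53.7 and 47.4 CPM in Rib_CA, against 161 and 189 CPM in DMSO (adjusted p = 0.0285, edgeR). CCDC80 had 41.3 and 31.2 CPM in Rib_CA, against 99.9 and 115 CPM in DMSO (adjusted p = 0.0304, edgeR). IGFBP3 had 59.3 and 86.2 CPM in Rib_CA, against 163 and 198 CPM in DMSO, and its fold change was the one of the 4 that did not shrink after correction (2.88-fold lower; adjusted p = 0.0803, edgeR). Each of the 4 lost its call with DMSO 2 left out, and CCDC80, RBMS3 and IGFBP3 also with DMSO 1 left out; IGFBP3 and RBMS3 did not pass with total-count scaling or in limma-voom. After the GC and length correction none of them passed, TGFB2 being 2.20-fold lower, CCDC80 1.58-fold and RBMS3 1.36-fold.

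Upstream of LATS, 21 of 22 kinase and scaffold genes were tested, and 2 fell while none rose, beside 5.11% of all genes called lower and 2.01% higher. TAOK1, a kinase that activates the MST kinases, had 55.0 and 60.1 CPM in Rib_CA, against 202 and 166 CPM in DMSO (3.20-fold lower; adjusted p = 0.0285, edgeR). Its paralog TAOK3 had 72.4 and 72.8 CPM in Rib_CA, against 164 and 162 CPM in DMSO (2.25-fold lower; adjusted p = 0.0417, edgeR). Without DMSO 1 neither passed, and without DMSO 2 or with total-count scaling TAOK3 did not pass. Corrected for GC content and length, TAOK1 was 1.52-fold and TAOK3 1.82-fold lower, without a call. The median log2 fold change of these 21 was -0.38, and -0.01 once corrected. Its member MAP4K1 had at most 14 counts in a library and was not tested.

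Among 20 junction, polarity and adaptor genes that act on YAP, TAZ or LATS, 3 fell and none rose, beside the same 5.11% and 2.01% of all genes. FAT4, an atypical cadherin, had 15.4 and 11.8 CPM in Rib_CA, against 72.4 and 63.5 CPM in DMSO (5.00-fold lower; adjusted p = 0.0285, edgeR). TJP1, which encodes the tight junction protein ZO-1, had 66.1 and 37.0 CPM in Rib_CA, against 190 and 210 CPM in DMSO (3.88-fold lower; adjusted p = 0.0298, edgeR). PALS1, of the Crumbs polarity complex, had 56.4 and 67.2 CPM in Rib_CA, against 201 and 184 CPM in DMSO (3.12-fold lower; adjusted p = 0.0286, edgeR). FAT4 and TJP1 kept their calls in each fit with 1 library left out, and PALS1 lost its call without either DMSO library. After the GC and length correction FAT4 was 2.72-fold, TJP1 2.70-fold and PALS1 2.01-fold lower, and none passed. Over the 20 genes the median was -0.20, and -0.10 once corrected; AMOTL2 and PTPN14 are in this list and among the 18 targets.

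Of 8 genes for the turnover of YAP, TAZ and LATS, WWP1, a ubiquitin ligase of LATS1, was the 1 that fell, to 32.1 and 27.4 CPM in Rib_CA, against 89.1 and 82.9 CPM in DMSO (2.89-fold lower, 1.84-fold after correction; adjusted p = 0.0297, edgeR). Over all genes tested 5.11% were called lower. The call of WWP1 was lost without either DMSO library and with total-count scaling. The remaining lists had no member past the threshold. In the list of 15 SRF, MRTF and actin genes tested, the log2 fold change of FHL2 was 0.97 ± 0.26 (adjusted p = 0.0699, edgeR), that of MRTFB -1.49 ± 0.48 (adjusted p = 0.105) and that of FHL1 1.57 ± 0.59 (adjusted p = 0.143). Among 8 AP-1 genes, whose products share enhancers with TEADs, the log2 fold change of JUNB was 1.92 ± 0.51 (adjusted p = 0.0698, edgeR), that of JUND 1.14 ± 0.33 (adjusted p = 0.0818) and that of JUN 0.69 ± 0.37 (adjusted p = 0.274). FOSL1 was the 1 of the 8 below 0, at -0.74 (adjusted p = 0.280, edgeR). After the GC and length correction JUNB stood at 1.20, JUND at 0.44, JUN at 0.34 and FOSL1 at -1.39. For TEAD2 and the VGLL cofactors, 4 of 5 were tested. TEAD2 showed a log2 fold change of 0.12 ± 0.28, VGLL4 one of 0.08 ± 0.28 and VGLL2 one of -2.11 ± 0.68 (adjusted p = 0.107, edgeR), the last at no more than 1.88 CPM. Of the other CCN genes, CCN3 had one of -0.23 ± 0.41 and CCN5 one of -0.62 ± 0.81.

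**Figure D4:**
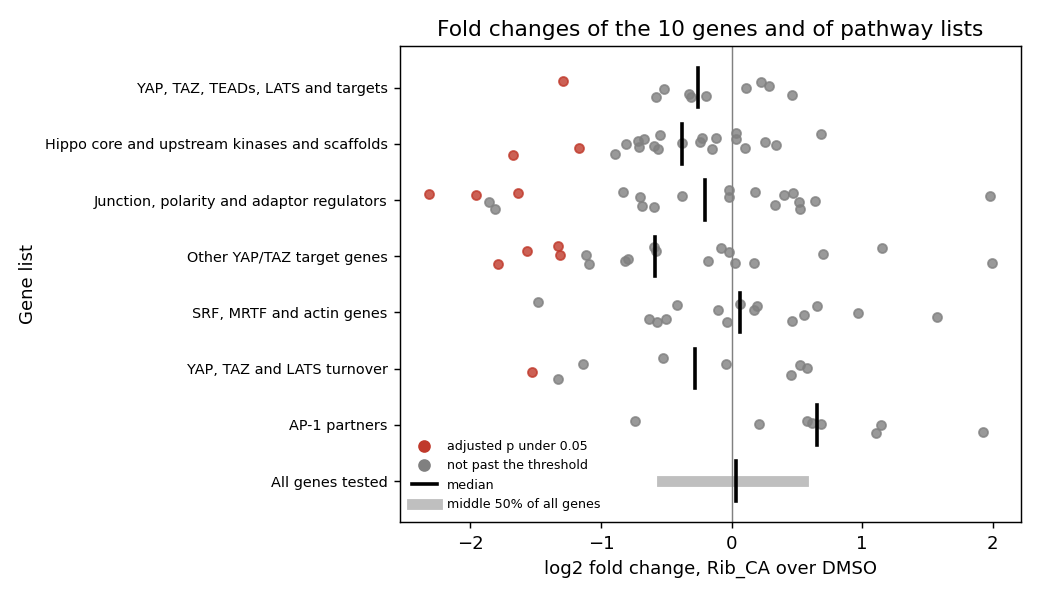
Log2 fold change of Rib_CA over DMSO for each tested gene of the 10 and of 6 pathway lists, with genes past the threshold in red, the median of each list as a black bar and the middle 50% of all genes tested as a grey bar. All red points lie left of 0, 4 of them among the other YAP and TAZ targets, whose median is -0.59.

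The fold change followed transcript composition over all genes tested, and the 10 genes differ widely in composition. With the genes tested split into 5 bins of equal size by GC content of the longest transcript, the median log2 fold change of the lowest bin was -0.55 and 14.4% of its genes were called lower, while in the highest bin the median was 0.50 and 0.110% were called lower. WWTR1 and LATS1 lie in the lowest bin, YAP1, TEAD1 and ANKRD1 in the second, where the median was -0.30, and TEAD3 and TEAD4 in the highest. TEAD1 has a GC content of 41.3% and a transcript of 8477 bases, in the longest of 5 such bins by length, where the median was -0.40 and 13.3% were called lower. The log2 fold changes of YAP1, WWTR1 and LATS1 were -0.11, 0.26 and 0.27 after correction for both properties, so that the direction of WWTR1 and LATS1 turned. The correction also removes any treatment effect that runs along GC content or length, and the part of composition in these results was not tested further.

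**Figure D5:**
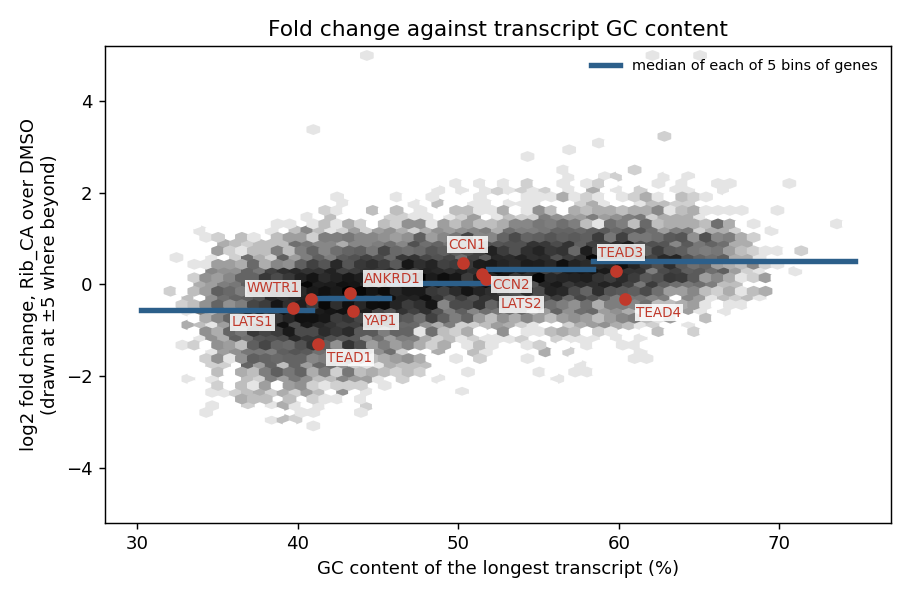
Log2 fold change of Rib_CA over DMSO against the GC content (%) of the longest transcript, with all genes tested as grey hexagons (darker where more genes lie, log scale), the median of each of 5 bins as blue bars and the 10 genes in red. The blue bars climb from -0.55 to 0.50, TEAD1 lies under the bar of its bin and TEAD4 under that of the highest bin.

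The 2 Rib_CA libraries differed from each other in many of the targets, and in some neighbouring lists too. TEAD4 and CCN1 were at least 2-fold higher in Rib_CA 1 than in Rib_CA 2, as were 5.49% of all genes tested. Of the 18 other target genes, 14 were higher in Rib_CA 1 and 4 at least 2-fold higher, with a median log2 difference of 0.40, beside 49.5% of all genes tested and a median of -0.01. The AP-1 genes were higher in Rib_CA 1 in 7 of 8 cases, with a median of 0.89, the SRF, MRTF and actin genes in 11 of 15, with a median of 0.63, and the junction, polarity and adaptor genes in 15 of 20, with a median of 0.33. The turnover genes were higher in Rib_CA 1 in 6 of 8 cases (median 0.18). The upstream kinase and scaffold genes were higher there in 11 of 21 cases (median 0.05). For TEAD2 and the VGLL genes it was 2 of 4 (median -0.06), and for the other CCN genes 0 of 2 (median -0.71). Of the 10 genes 8 were higher in Rib_CA 1 (median 0.27), while ANKRD1 and TEAD3 lay lower in Rib_CA 1 than in Rib_CA 2. In the DMSO pair, 1 of 8 AP-1 genes was higher in DMSO 1 (median -0.78), as were 8 of the 18 other targets (median -0.07). So were 6 of the 10 genes, 16 of 21 upstream genes, 13 of 20 junction, polarity and adaptor genes and 6 of 8 turnover genes. For the SRF, MRTF and actin genes it was 5 of 15, for TEAD2 and the VGLL genes 0 of 4 and for the other CCN genes 0 of 2. The share over all genes tested was 59.4% (median 0.08). No test bears on differences between 2 single libraries. Among the 9688 genes tested whose mean reached 10 CPM, the 5 whose log2 CPM profile over the 4 libraries lay nearest to that of TEAD1 were TUBGCP4, ZC3H15, MGA, YTHDC2 and PNPT1, at Euclidean distances of 0.0342 to 0.0856. Their log2 fold changes ran from -1.36 to -1.26, and with 4 libraries many genes can lie this close.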

How the data were processed

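Libraries were grouped and numbered by their titles. The authors deposited raw counts, whole numbers per human Ensembl gene with no normalization. No source used here gives the aligner, the counter or its use of strand. The submitters' processing notes name GRCm38 and mm10, mouse builds that do not match human IDs. Among deposited counts from 1 to 10, 69.9% were even, as when both mates of a pair are counted, so counting intervals are too narrow. Whether replicates were separate cultures is not stated, so each p-value reflects the spread among these libraries, which may be technical. Replicates differed beyond counting noise (chi-square over its degrees of freedom 265 in Rib_CA and 257 in DMSO, over genes with at least 20 counts).

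Low genes were removed with filterByExpr (minimum count 10, minimum total 15), libraries were scaled by TMM (factors 1.01 and 1.14 for Rib_CA, 0.997 and 0.872 for DMSO) and genes were tested with edgeR 4.0.16 (robust quasi-likelihood) in R 4.3.3, with Benjamini-Hochberg adjustment at 0.05. SE is the log2 fold change over the root of F. Symbols came from a gene name table (20148 IDs matched), and positions, transcript lengths and GC content from GENCODE release 29. No exon of the 10 genes overlapped another gene of the table. The correction for GC content and length added, as an offset, a smooth (mgcv 1.9.3, 6 basis functions) of each library's deviations from the gene means.

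Alternatives were DESeq2 1.42.0 and its size factors, total-count scaling, other filters, a replicate block, each library left out in turn, limma-voom (limma 3.58.1), the GC and length correction, and dropping mitochondrially encoded genes. A lone library is assumed to vary like the other group's. In 3 simulations of Rib_CA against DMSO, 200 genes were changed among 13537 to 13542 tested. Of changes of 2 on the log2 scale 74 to 83.8% were recovered, and of changes of 3, 99 to 100%. Between 1 and 11 unchanged genes were called. The 10 genes had log2 fold changes from -1.29 to 0.46, and recovery of changes of this size was not tested. Named are the 10 genes, each list member past the threshold, or otherwise up to 3 with the smallest p. GADD45A was named after its values were seen. The genes and lists were chosen with earlier results of these data known.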

Additional observations from a re-analysis of the deposited data

How the results depend on the processing

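Of the 10 genes, YAP1 kept its direction and its side of the threshold under all 13 alternatives, and TEAD1 kept its direction under all 13. TEAD1 lost its call with total-count scaling (log2 fold change -1.10, adjusted p = 0.0673, edgeR), with the replicate block (-1.28, adjusted p = 0.0572), with the GC and length correction (-0.49) and without either DMSO library. The direction turned under the GC and length correction for WWTR1 (0.26), TEAD3 (-0.12), CCN2 (-0.11) and LATS1 (0.27), and with total-count scaling for ANKRD1 (0.0149). With 1 library left out, the log2 fold change ranged from -1.42 to 0.29 for TEAD4, from -0.41 to 0.98 for CCN1, from -0.30 to 0.59 for CCN2, from -0.61 to 0.0870 for ANKRD1 and from -0.24 to 0.36 for LATS2. The number of the 10 genes called, 1 with all libraries, was 0 with total-count scaling, the replicate block and the GC and length correction, and 0 to 2 with 1 library left out. With total counts as the scale the median over all genes tested shifted by 0.20 (log2). Of the pathway genes called, TAOK3 and RBMS3 lost their calls with the replicate block. The cause of these losses was not tested.

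Over all genes, 275 were called higher and 699 lower. Called higher were 448 without a filter, 418 with the filter of 5 CPM and 991 with DESeq2, and called lower 328 with total-count scaling and 1459 with DESeq2. No gene passed after the GC and length correction in edgeR, with 3396 at an unadjusted p under 0.05 against 3879 before. With 1 library left out, 36 to 1234 genes were called higher and 137 to 1634 lower, fewest without DMSO 1 and most without Rib_CA 1. Deviations of same-numbered libraries had a correlation of -0.19, which with so few libraries cannot show whether the replicate numbers pair them. The replicate block called 260 higher and 687 lower. The labels name no pairing; a crossed pairing, added after seeing the data, called 724 higher and 1267 lower. With 1 library left out, the difference in log2 ratio between Rib_CA and DMSO ran from -1.55 to 0.06 for TEAD1 to TEAD4 and from -0.10 to 0.40 for CCN1 to CCN2, turning sign in both, from -0.47 to -0.04 for YAP1 to WWTR1 and from -0.84 to -0.38 for LATS1 to LATS2. These ratios carry no correction for GC content and length, after which LATS1 had a log2 fold change of 0.27 and LATS2 one of 0.05.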

Other observations

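AMOT, which encodes a scaffold that binds YAP and LATS, stood apart within Rib_CA, with 195 counts in Rib_CA 1 and 0 counts in Rib_CA 2, against 356 and 237 counts in DMSO 1 and 2. A count of 0 allows up to 3 counts, or 0.0794 CPM before scaling, in Rib_CA 2, where Rib_CA 1 had 5.02 CPM. This limit holds for independent counts and is too low where each fragment gave more than 1 count. AMOT is 1 of 5 genes at 0 in Rib_CA 2 with at least 100 counts in each of the other libraries. The rest are ZNF521, STXBP6 and the near-identical pair SPANXA1 and SPANXA2, whose reads may be split between copies. There were 0 such genes for Rib_CA 1, 1 for DMSO 1 and 0 for DMSO 2. All of these were singled out after their values were seen.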
